A study of Oryza sativa Japonica Group with 12 samples.

Results

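The dividing cell genes of the rice root were 9 rows of the deposited expression table, listed by their identifiers in the Rice Annotation Project (RAP). The list sets no rule on their values, but it was drawn up with earlier results of these data known. Counts of members set against all genes below are therefore descriptive. The list names Os01g0897000 as CDKB1;1, Os08g0512600 as CDKB2;1, and Os01g0805600, Os04g0563700 and Os06g0726800 as cyclin B genes. It names Os02g0805200 as PCNA, Os11g0484300 as MCM2, Os05g0476200 as MCM3 and Os02g0797400 as MCM5. All 9 were among the 35833 rows of the table, and all 9 were among the 19207 genes tested, which averaged 10 or more normalised counts across the 12 libraries. The table gives no gene names and the RefSeq gene table matched 0 of the 9 identifiers, so the names are those of the list.

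The groups were roots of piperonylic acid-treated plants and of mock-treated plants, sampled 6 h and 24 h after a foliar spray, with 3 libraries in each of the 4 groups. All were Nipponbare seedlings that received, at 13 days past transplanting, a spray of 300 µM piperonylic acid (PA) with 0.1% Tween 20 or a matching mock solution. PA is a known inhibitor of cinnamate 4-hydroxylase, which acts early in phenylpropanoid synthesis. Each library was made from the pooled roots of 4 plants with a kit that sequences the 3′ ends of mRNAs. The labels give an age of 13 days past transplanting at 6 h and of 14 days at 24 h, so time after the spray and age of the plants cannot be told apart. Plants grew under 12 h of light, and a harvest 6 h after a spray falls at another time of day than one at 24 h. Time of day cannot be told apart from them either. The series title calls the roots inoculated with the root-knot nematode Meloidogyne graminicola and the source names speak of a second treatment. The protocols describe a single spray and no inoculation, so whether these roots were infected is not established here. Nothing in the labels says that replicates came from separate cultures, and p-values measure the spread between these samples.

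A plant cell copies its DNA in S phase and divides in M phase, and in roots most of this happens in the meristem behind the tip and in young lateral and crown root primordia. The MCM proteins form a ring that is loaded on DNA before S phase and unwinds it during replication. PCNA is the sliding clamp that holds DNA polymerase to its template. CDKB kinases, a class found in plants, and B-type cyclins act around the entry into mitosis. A whole root holds mostly cells that no longer divide, and in such bulk samples fewer dividing cells and less of these transcripts per dividing cell cannot be told apart.

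Libraries held between 6302056 and 20301774 reads, recovered from the normalised values, and between 25 and 1249 reads for a single member. Counting error alone is then 20% of the value for the lowest of these and 2.83% for the highest. Replicates of a group differed in a member's normalised count by a coefficient of variation with a median of 10.2% in PA and 12.3% in mock roots at 6 h, and of 13.1% in PA and 9.50% in mock roots at 24 h. Of the genes listed for mature root, 6 were in the table and together took between 4263 and 6792 CPM (library-scaled reads) in every library. The 11 genes listed for leaf and photosynthesis took between 55.2 and 254.0 CPM, and none was at 0 in any library. The identifiers of these marker lists, and of the root tip regulators below, were recalled, and their names could not be checked.

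At 6 h most dividing cell genes had lower values in PA roots, and no single member passed the test. Of the 9 genes, 8 had a negative log2 fold change, against 48.8% of all genes tested, and the median was -0.37, against 0.0063 over all genes tested. By limma with Benjamini-Hochberg adjustment over all 19207 genes, 0 of 9 passed in either direction, against 1.66% of all genes. At an unadjusted p under 0.05, 5 of 9 were lower, against 8.14% of all genes, and 0 were higher, against 6.66%. edgeR and DESeq2 on the recovered reads also called 0 of 9, with 5 and 3 lower at an unadjusted p under 0.05. Fold changes here and below are on the scale of log2(normalised count + 2).

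Both CDKB genes had the lowest fold changes of the list. CDKB1;1 (Os01g0897000) had 70.8, 57.7 and 77.5 normalised counts in PA roots, against 123, 95.2 and 92.1 in mock roots. All 3 PA libraries lay below all 3 mock libraries, and replicate 1 of the mock group was the highest. The means were 68.7 ± 10.1 in PA roots and 103 ± 17.0 in mock roots (SD, n = 3 each). Its log2 fold change was -0.57 ± 0.17 (SE), for which limma gave an adjusted p of 0.0961 and an unadjusted p of 0.00388. CDKB2;1 (Os08g0512600) had 98.3, 100.5 and 126 normalised counts in PA roots, against 170.5, 153 and 155 in mock roots. Here too the groups did not overlap, and replicate 3 of the PA group stood above the other PA libraries. Its log2 fold change was -0.56 ± 0.16 (SE), a level of 0.68 times that of mock roots with a 95% confidence interval from 0.54 to 0.86, and the limma adjusted p was 0.0811. CDKB2;1 passed when replicate 3 of the 6 h PA group was left out, at -0.67 and an adjusted p of 0.0368. It also passed without replicate 1 of the 24 h PA group, which enters the estimate of spread but not the fold change, at 0.0475.

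**Figure D1:**
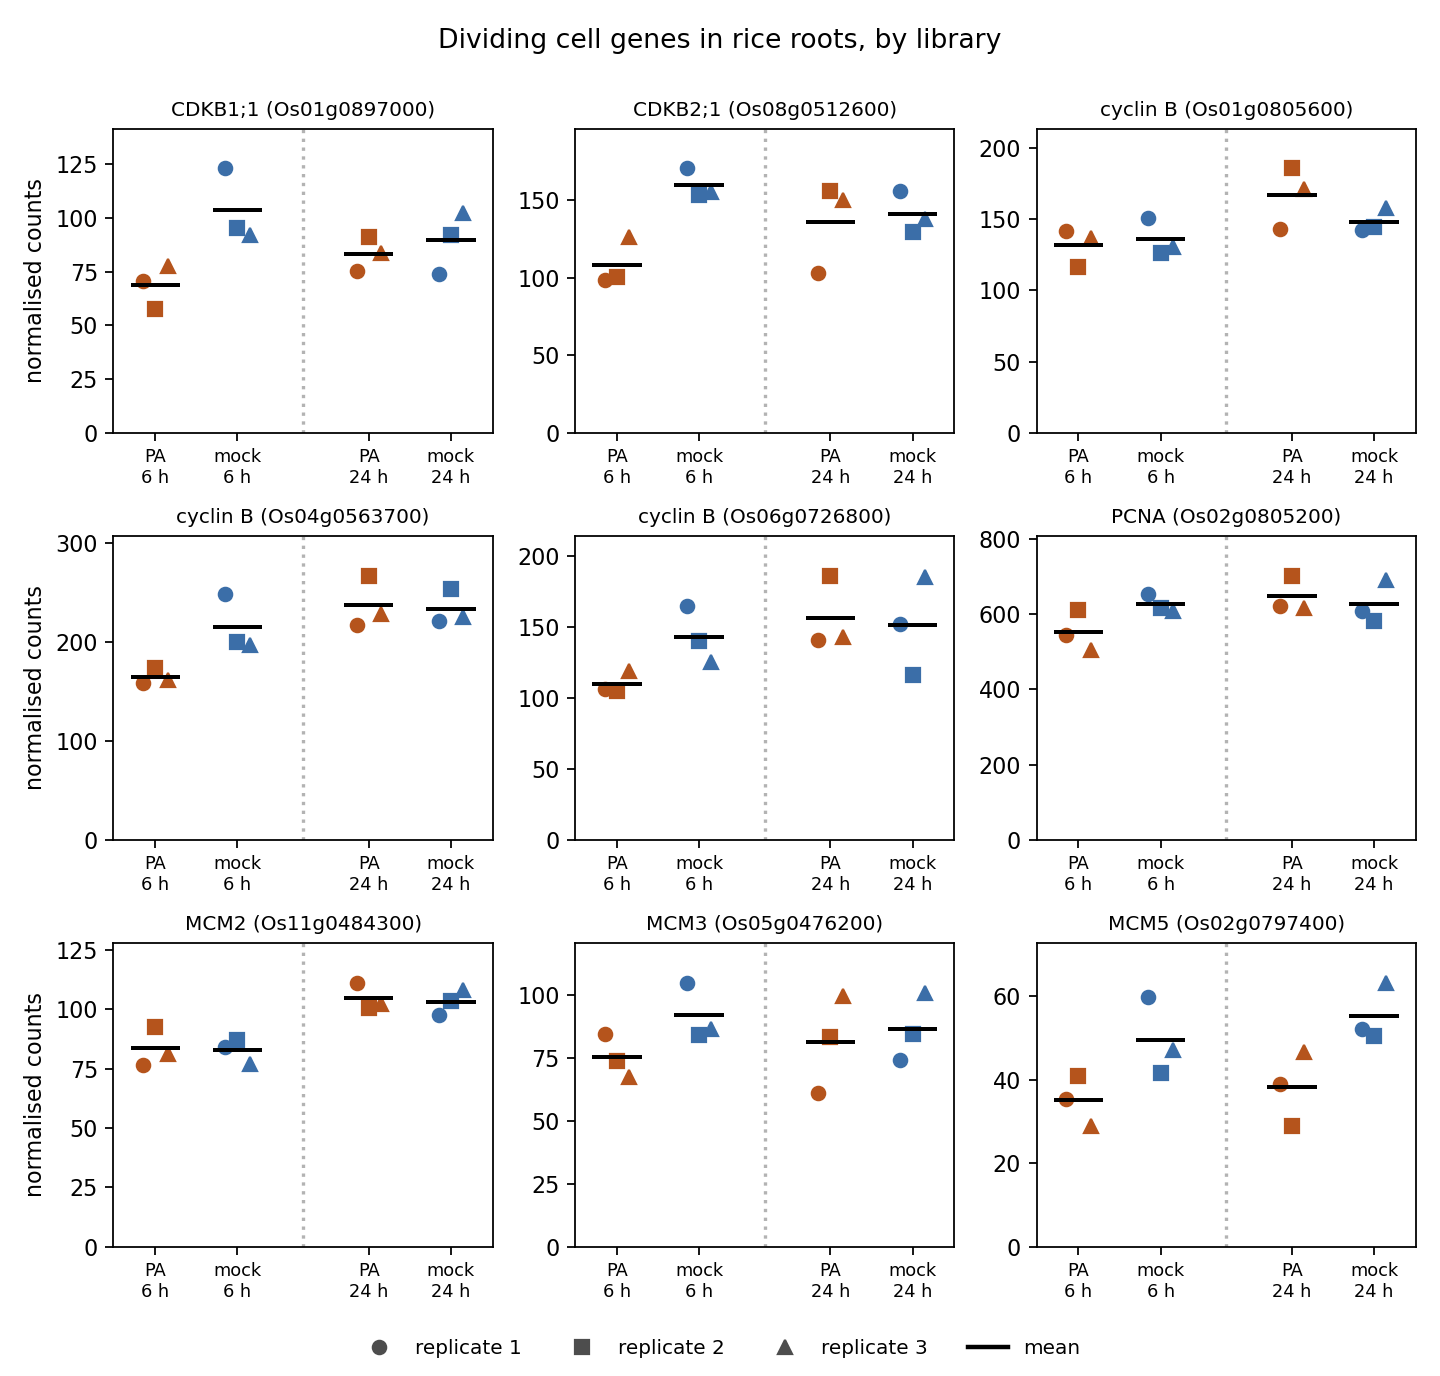
Normalised counts of the 9 dividing cell genes (y axis, from 0) in each library of PA and mock roots at 6 h and 24 h; the marker shape gives the replicate and the bar the group mean. At 6 h the PA libraries of both CDKB genes, of cyclin B genes Os04g0563700 and Os06g0726800 and of MCM5 lie below all mock libraries; the authors scaled the times separately, so levels compare within a time only.

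The cyclin B genes, whose products bind and activate mitotic kinases, were not alike. Os04g0563700 had 158, 173 and 162 normalised counts in PA roots, against 248, 199.6 and 196 in mock roots. Os06g0726800 had 106, 105 and 119 in PA roots, against 164, 139.5 and 125 in mock roots. In both genes the groups did not overlap, by a narrow margin in the second, and mock replicate 1 was again the highest library. Their log2 fold changes were -0.37 ± 0.12 and -0.37 ± 0.17 (SE), with limma adjusted p of 0.120 and 0.315. Os01g0805600 had 142, 116 and 137 normalised counts in PA roots, against 151, 127 and 131 in mock roots. These groups overlapped, with a log2 fold change of -0.046 ± 0.13 (SE), a 95% confidence interval from -0.32 to 0.23 and a limma adjusted p of 0.914.

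The replication genes ran from a fold change near 0 to one near that of the CDKB genes. MCM5 (Os02g0797400) had 35.4, 40.8 and 29.0 normalised counts in PA roots, against 59.7, 41.6 and 47.0 in mock roots. The groups did not overlap, with PA replicate 2 just under mock replicate 2, and between 31 and 50 reads lay behind each value. Its log2 fold change was -0.47 ± 0.22 (SE) and its limma adjusted p 0.324. MCM2 (Os11g0484300), whose product is another subunit of the same ring, had 76.7, 92.6 and 81.3 normalised counts in PA roots, against 84.0, 86.9 and 77.1 in mock roots. The libraries of MCM2 were mixed, and its log2 fold change of 0.012 ± 0.13 (SE) had a 95% confidence interval from -0.26 to 0.29. MCM3 (Os05g0476200), a further subunit, had 84.6, 73.7 and 67.2 in PA roots, against 105, 84.1 and 86.5 in mock roots. PCNA (Os02g0805200) had 545, 611 and 504 in PA roots, against 654, 618 and 608 in mock roots. In MCM3 and in PCNA a single PA library reached into the range of the mock group. Their log2 fold changes were -0.28 ± 0.18 and -0.18 ± 0.098 (SE), with limma adjusted p of 0.530 and 0.420.

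In all, 5 of 9 members had PA libraries that lay below every mock library at 6 h, against 9.73% of all genes tested, and 0 had PA libraries above every mock library, against 9.88%. Taken by the replicate numbers of the sample titles, 7 of 9 were lower in PA roots in all 3 pairs, against 20.2% of all genes. The other two were MCM2 and the cyclin B gene Os01g0805600. With the replicate number as a block, 0 of 9 passed, 4 were lower at an unadjusted p under 0.05, and the lowest limma adjusted p was 0.0719, for CDKB1;1. Without mock replicate 1 the member median was -0.26, 7 of 9 were negative and 3 of 9 were lower at an unadjusted p under 0.05. The last count was also 3 without replicate 1 of the 6 h PA group and without replicate 1 of the 24 h mock group.

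**Figure D2:**
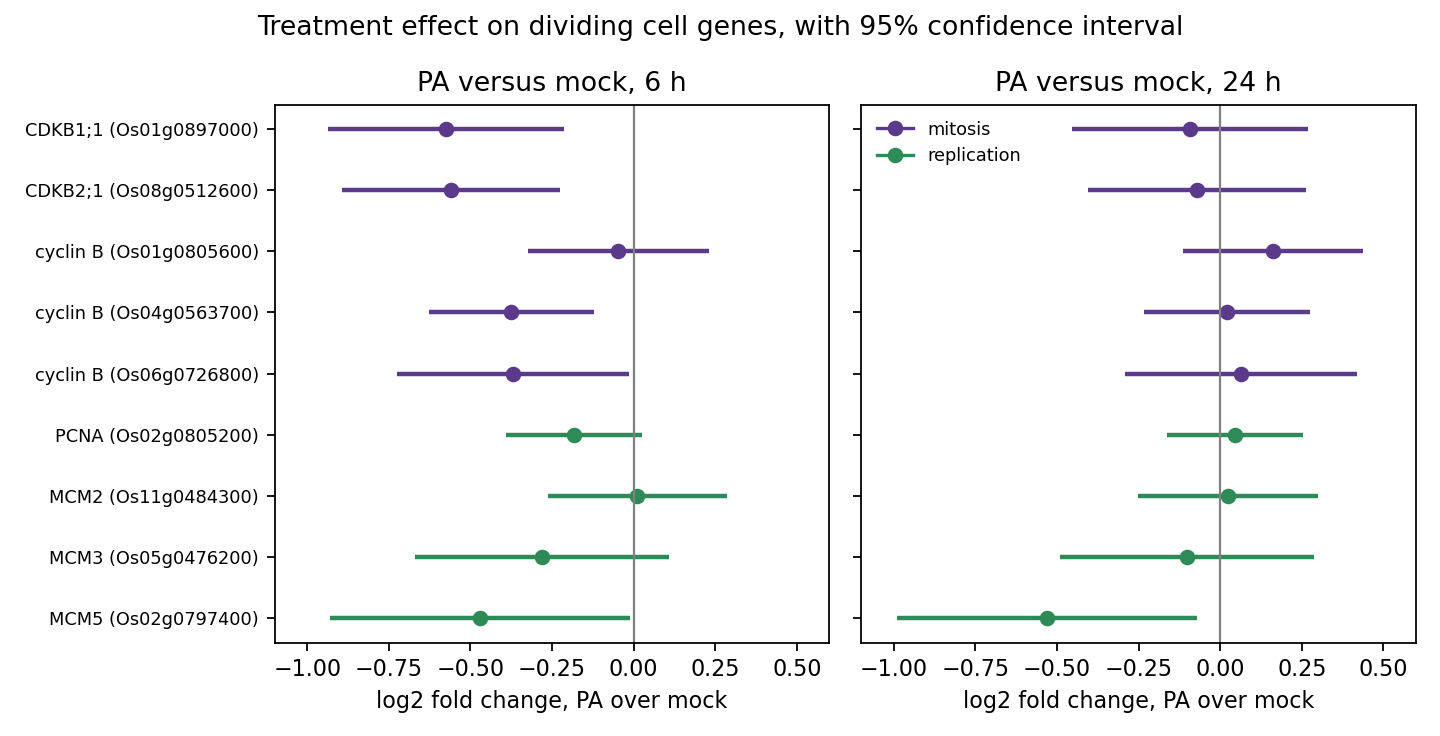
Log2 fold change of PA over mock roots (x axis) for each dividing cell gene at 6 h and at 24 h, with its 95% confidence interval; colour separates genes of mitosis and of replication. At 6 h the intervals of 5 genes lie below 0, and at 24 h that of MCM5, at -0.99 to -0.070, is the only one of the 9 that does.

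The summed values of the members and the leaf list were lower in all PA than in all mock libraries at 6 h. For the leaf list the margin was narrow, and for the mature root and root tip lists the PA values lay within the mock range. The 9 members together took 170, 177 and 163 CPM in replicates 1, 2 and 3 of the PA roots, against 229, 191 and 191 in mock roots, so that mock replicate 1 was the highest. The leaf and photosynthesis genes together took between 64.3 and 96.6 CPM in PA roots and between 97.7 and 254.0 in mock roots. Of these 11 genes 10 had a negative log2 fold change, with a median of -0.58, and by limma 0 passed, with 0 at an unadjusted p under 0.05. Their highest library was mock replicate 2 and their lowest mock library was replicate 1, the one in which the members were highest. The 6 mature root genes took between 6047 and 6165 CPM in PA roots and between 4952 and 6792 in mock roots. Of these 6 genes 4 had a negative log2 fold change, with a median of -0.024, and by limma 0 passed. At an unadjusted p under 0.05, 2 of the 6 were higher, against 6.66% of all genes, and 0 were lower, against 8.14%. The 3 tested genes listed as root tip regulators took between 28.1 and 32.5 CPM in PA roots and between 27.1 and 35.2 in mock roots. Of these 2 were negative and 1 was positive, at 0.24, with a median log2 fold change of -0.34. By limma 0 of the 3 were lower or higher at an unadjusted p under 0.05. The part of these values in the result was not tested.

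Other genes listed for the cell cycle had smaller medians at 6 h than the 9 members. These lists, like the marker lists, hold recalled identifiers whose names could not be checked against a file. For DNA replication, a list meant to hold MCM, origin recognition, polymerase and nucleotide synthesis genes, 17 of 18 were tested, 12 were negative and the median log2 fold change was -0.12. For mitosis and its cyclins, 10 of 12 were tested, 8 were negative and the median was -0.30. For D-type cyclins, A-type kinases, kinase inhibitors and retinoblastoma, most of which act before S phase, 13 of 15 were tested, 9 were negative and the median was -0.11. The share of negative values over all genes tested was 48.8%. By limma 0 genes of the 3 lists passed, against 1.66% of all genes. At an unadjusted p under 0.05, 2 of 17, 2 of 10 and 1 of 13 were lower, against 8.14% of all genes. Named after their values were seen, these were Os12g0560700 and Os06g0257450, then Os01g0191800 and Os01g0972900, then Os09g0466100. In the DNA replication list the lowest values were -0.64 ± 0.30 (SE) in Os06g0187000 and -0.60 ± 0.32 in Os11g0128400, and the highest were 0.43 ± 0.41 in Os02g0804900 and 0.24 ± 0.23 in Os11g0186400. In the mitosis list the lowest were -0.68 ± 0.27 in Os01g0972900 and -0.63 ± 0.35 in Os01g0233500, and the highest were 0.20 ± 0.19 in Os03g0607600 and 0.052 ± 0.16 in Os01g0841500.

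At 24 h the dividing cell genes had no common direction between PA and mock roots. Of the 9 genes 4 were negative, against 51.9% of all genes tested, and the median log2 fold change was 0.021, against -0.0090 over all genes. By limma 0 of 9 passed, against 0.115% of all genes. At an unadjusted p under 0.05, 1 of 9, MCM5, was lower, against 2.94% of all genes, and 0 were higher, against 3.17%. edgeR and DESeq2 called 0 of 9, with 1 and 0 lower at an unadjusted p under 0.05. The sign of the member median changed with the libraries used, from -0.067 without PA replicate 2 to 0.082 without PA replicate 1.

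MCM5 had 38.9, 28.9 and 46.6 normalised counts in PA roots at 24 h, against 52.1, 50.4 and 63.1 in mock roots. It was the 1 member of 9 whose PA libraries lay below every mock library, against 5.59% of all genes, and 0 lay above, against 6.17%. The log2 fold change was -0.53 ± 0.22 (SE), beside -0.47 at 6 h, and limma gave an adjusted p of 0.759. Between 25 and 107 reads lay behind each of these libraries, and the unadjusted p was above 0.05 without PA replicate 2 and without mock replicate 3. CDKB1;1 had 75.0, 91.2 and 83.8 in PA roots, against 74.1, 92.0 and 102 in mock roots. CDKB2;1 had 103, 156 and 150.0 in PA roots, against 156, 129.8 and 138 in mock roots. In both CDKB genes the groups overlapped, with log2 fold changes of -0.092 ± 0.17 and -0.070 ± 0.16 (SE). Their 95% confidence intervals ran from -0.45 to 0.27 and from -0.40 to 0.26.

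The cyclin B genes at 24 h had log2 fold changes between 0.021 and 0.16. The highest was in Os01g0805600, with 143, 186 and 172 normalised counts in PA roots, against 142, 145 and 158 in mock roots, and its groups overlapped. Os04g0563700 had 217, 267 and 228 in PA roots, against 221, 253 and 225 in mock roots. Os06g0726800 had 140.3, 186 and 143 in PA roots, against 152, 116 and 185 in mock roots. Neither gene separated the groups. PCNA had a log2 fold change of 0.046 ± 0.098 (SE), MCM2 of 0.023 ± 0.13 and MCM3 of -0.10 ± 0.18. The interval of PCNA, the member with most reads, ran from 0.89 to 1.19 times the mock level.

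The change of the treatment effect between the times was tested as an interaction. Of 9 members 8 had an effect that was higher at 24 h than at 6 h, against 48.7% of all genes tested, and the median difference was 0.23, against -0.0091 over all genes. The 6 h effect enters this difference with its sign reversed, so it is not a result apart from the 6 h comparison. By limma 0 of 9 passed, against 0.552% of all genes. At an unadjusted p under 0.05, CDKB2;1 and the cyclin B gene Os04g0563700 were higher, 2 of 9 against 5.95% of all genes, and 0 were lower, against 5.02%. edgeR and DESeq2 called 0 of 9, with 2 and 1 higher at an unadjusted p under 0.05. In limma CDKB2;1 had a difference of 0.49 ± 0.22 (SE) and an adjusted p of 0.434, Os04g0563700 one of 0.40 ± 0.17 and 0.390, and CDKB1;1 one of 0.48 ± 0.24 and 0.488. The 5 mitosis members had a median difference of 0.43 and the 4 replication members one of 0.095, a split that was not tested. MCM5, at -0.061 ± 0.31, was the exception in sign. Without 1 library the median difference over the 9 ran from 0.17, without replicate 2 of the 24 h PA group, to 0.36, without replicate 1 of that group. Marker lists were compared as well. The leaf and photosynthesis genes had a positive difference in 10 of 11, with a median of 0.47, larger than that of the members. The mature root genes had a positive difference in 4 of 6, with a median of 0.12, and the root tip regulators in 2 of 3, with a median of 0.35. By limma 0 genes of these lists passed. The leaf list had 0 at an unadjusted p under 0.05, the mature root list had 2 lower, Os02g0745100 at -0.44 and Os03g0107300 at -0.38, and the root tip list had 1 higher, Os12g0122000 at 0.81. These 3 genes were named after their values were seen, and the part of the marker genes in the members' difference was not tested.

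For the comparison of the times all libraries were brought to 1 common scale, because the deposited values had been scaled within each time. In mock roots 8 of 9 members had lower values at 24 h than at 6 h, against 49.1% of all genes tested, and the median log2 fold change was -0.24, against 0.0075 over all genes. By limma 2 of 9 passed, CDKB2;1 and PCNA, against 17.2% of all genes. Both were lower, against 9.13% of all genes, and 0 were higher, against 8.1%. At an unadjusted p under 0.05, 3 of 9 were lower, against 14.5% of all genes, and 0 were higher, against 14.3%. This comparison uses the same 6 h mock libraries as the 6 h treatment comparison, so a high value in those libraries lowers both. Marker genes were compared between the times too. The leaf and photosynthesis genes took between 56.6 and 181 CPM in mock roots at 24 h, against 97.7 to 254.0 at 6 h, and 9 of 11 were negative, with a median log2 fold change of -0.38. The mature root genes took between 4263 and 6026 CPM at 24 h, against 4952 to 6792 at 6 h, with 2 of 6 negative and a median of 0.20. The root tip regulators took between 25.9 and 29.8 CPM at 24 h, against 27.1 to 35.2 at 6 h, and all 3 were negative, at a median of -0.0078. By limma 1 of 11 leaf genes, 1 of 6 mature root genes and 0 of 3 root tip regulators passed, none of these shares above the 17.2% of all genes. The leaf gene, Os03g0129300, fell by 1.46, with an adjusted p of 0.0252, and the mature root gene, Os02g0745100, fell by 0.43, with 0.0228. Both were named after their values were seen, and the part of the marker genes in the members' values was not tested.

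PCNA had 549, 524 and 621 rescaled normalised counts in mock roots at 24 h, against 722, 687 and 672 at 6 h. CDKB2;1 had 141, 117 and 124 in mock roots at 24 h, against 188, 170.5 and 171 at 6 h. In both genes every 24 h library lay below every 6 h library, as also in CDKB1;1 and MCM3. These were 4 of 9 members, against 16.6% of all genes, and 0 lay above, against 16.6%. PCNA fell by 0.30 ± 0.097 on the log2 scale (SE), with a limma adjusted p of 0.0445, and CDKB2;1 fell by 0.47 ± 0.16, with 0.0492. CDKB1;1 had a log2 fold change of -0.50 ± 0.17 and an adjusted p of 0.0551 by limma, and passed by edgeR, at 0.0403. MCM2 had a log2 fold change of 0.018 ± 0.13, and its groups overlapped.

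Both calls lie at the edge of the threshold. The CDKB2;1 call was lost without any 1 of the 6 mock libraries and without replicate 1 or 2 of the 6 h PA group, at limma adjusted p from 0.0542 to 0.140. The PCNA call was lost without any 1 of the 3 mock libraries of 6 h, replicate 1 or 2 of the 24 h mock group, replicate 1 of the 6 h PA group or replicate 1 of the 24 h PA group, at 0.0536 to 0.146. Without replicate 3 of the 24 h mock group CDKB1;1 passed, at 0.0468, and the member median was -0.37. Without replicate 1 of the 6 h mock group the median was -0.13. On the values as deposited, where the median of all genes is shifted by 0.30, the member median was 0.060 and 0 of 9 passed.

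In PA roots the same comparison gave no common direction. Of 9 members 4 were lower at 24 h than at 6 h, against 49.6% of all genes, and the median log2 fold change was 0.021. By limma 0 of 9 passed, against 13.9% of all genes. At an unadjusted p under 0.05, 0 of 9 were higher, against 12.9% of all genes, and 0 were lower, against 13.4%, and edgeR and DESeq2 had 0 as well. CDKB1;1 had 68.0, 82.4 and 75.5 rescaled normalised counts in PA roots at 24 h, against 78.6, 63.8 and 86.1 at 6 h. CDKB2;1 had 93.1, 141 and 135 at 24 h, against 109, 111 and 140.0 at 6 h. In both the times overlapped. Os04g0563700 had 196, 241 and 205 at 24 h, against 176, 191 and 179 at 6 h. Its 24 h libraries lay above its 6 h libraries, the 1 member of 9 to do so against 15.7% of all genes, and 0 lay below, against 16.1%. Its log2 fold change was 0.23 ± 0.12 (SE) and its limma adjusted p 0.247. Marker genes were compared in PA roots too. Of the leaf genes 9 of 11 were positive, with a median of 0.17, and by limma 0 passed. Of the mature root genes 4 of 6 were positive, with a median of 0.43. By limma 3 of these 6 passed, 1 higher and 2 lower, against 13.9% of all genes. Of the root tip regulators 2 of 3 were positive, with a median of 0.20, and 1 passed, higher. The part of the marker genes in the members' values was not tested.

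**Figure D3:**
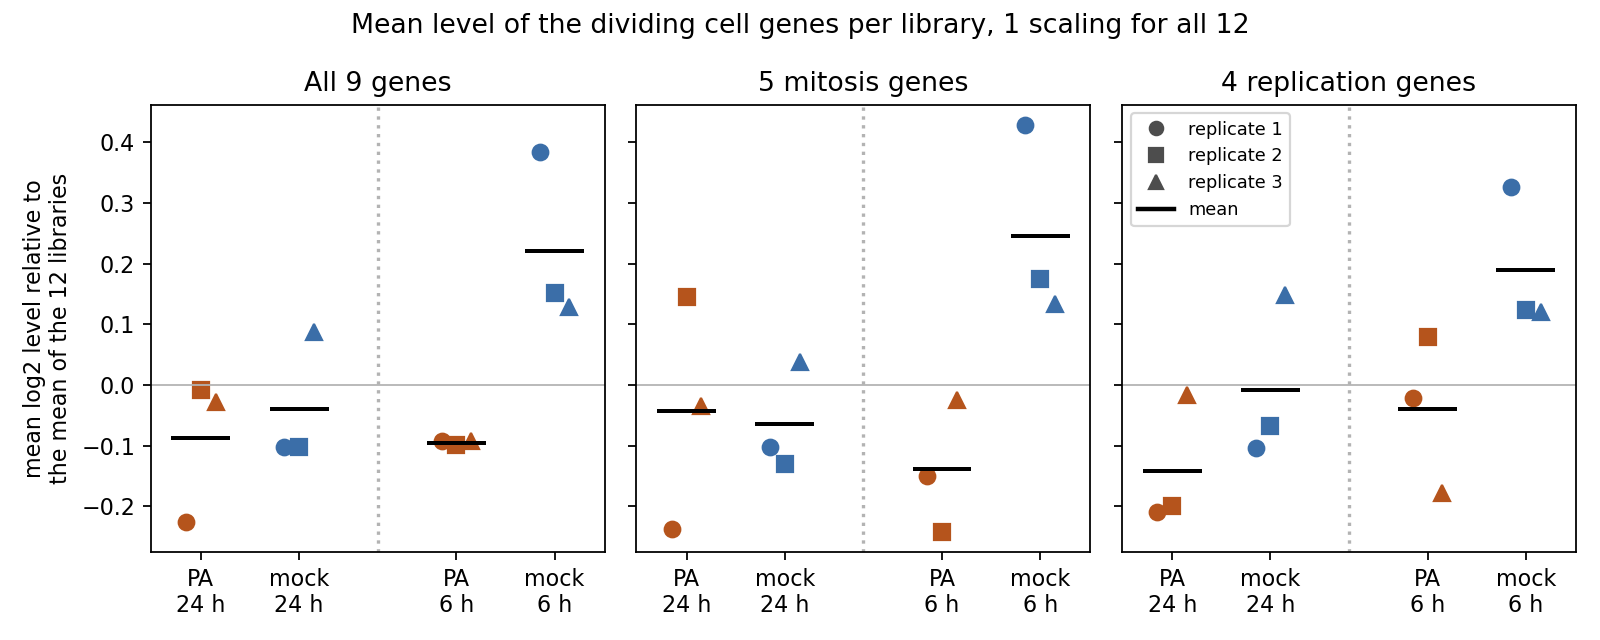
Mean log2 level of the dividing cell genes in each library relative to the mean of the 12 libraries (y axis), for all 9 genes, the 5 genes of mitosis and the 4 of replication; PA and mock roots at 24 h stand left of those at 6 h, shapes give the replicate and bars the group mean. The 6 h mock libraries, at 0.38, 0.15 and 0.13 over the 9 genes, are the 3 highest of the 12.

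On the common scale, the mean log2 level of the 9 members was -0.087 ± 0.12 in PA and -0.039 ± 0.11 in mock roots at 24 h (SD, n = 3 each). At 6 h it was -0.095 ± 0.0035 in PA and 0.22 ± 0.14 in mock roots (SD, n = 3 each). The mock roots of 6 h thus had the highest level, and the means of the other 3 groups lay within the spread of the 24 h groups. The near equality of the 6 h PA libraries did not hold within the list. The mitosis members had -0.15, -0.24 and -0.025 in replicates 1, 2 and 3, and the replication members -0.022, 0.080 and -0.18.

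Over all genes tested, 49.1% were negative in mock roots at 24 h against 6 h, and 49.6% in PA roots. Among the other cell cycle genes, 16 of 17 of the DNA replication list were negative in mock roots, with a median of -0.27. In PA roots 12 of 17 were, with a median of -0.13. By limma 1 of the 17 passed in each, against 17.2% of all genes in mock and 13.9% in PA roots. This was Os06g0168600, named after its values were seen. It fell by 0.52 ± 0.12 in mock roots and by 0.42 ± 0.12 in PA roots on the log2 scale (SE), with limma adjusted p of 0.00457 and 0.0209. At an unadjusted p under 0.05, 5 of the 17 were lower in mock roots, against 14.5% of all genes. In PA roots 3 were lower, against 13.4%, and 0 were higher in either. The mitosis list was negative in 7 of 10 genes in mock roots, with a median of -0.14, and in 3 of 10 in PA roots, with a median of 0.066. By limma 0 of these 10 passed. At an unadjusted p under 0.05, 1 was lower in mock roots, against 14.5% of all genes, and 0 in PA roots, against 13.4%. In the list of D-type cyclins, A-type kinases, inhibitors and retinoblastoma 5 of 13 were negative in each, with medians of 0.17 in mock and 0.10 in PA roots. There 1 of 13 passed in mock roots, against 17.2% of all genes, and 0 in PA roots, against 13.9%. The gene, Os07g0620800, also named after its values were seen, fell by 1.42 ± 0.42 in mock roots, with a limma adjusted p of 0.0275. At an unadjusted p under 0.05, 2 of the 13 were higher in mock roots, against 14.3% of all genes, and 3 in PA roots, against 12.9%. At that level 1 was lower in mock roots, against 14.5%, and 0 in PA roots, against 13.4%. Between PA and mock roots at 24 h the medians of the 3 lists were 0.028, -0.028 and -0.011. There 0 genes passed by limma. At an unadjusted p under 0.05, 1 of 17 in the first list was higher, against 3.17% of all genes. In the third 1 of 13 was lower, against 2.94%, and the second had 0.

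Members also varied together between replicates. With group means removed, 29 of the 36 pairs of members had a positive Pearson correlation over the 12 libraries, with a median of 0.33 and a range from -0.53 to 0.84. The share of positive pairs among other genes was not computed. The correlation of a member with the mean of the other 8 was highest in Os01g0805600, at 0.73, MCM3, at 0.70, and CDKB1;1, at 0.63. It was lowest in MCM2, at -0.093, and MCM5, at 0.13. The correlation with the members' mean had a median of 0.47 over the mitosis list, 0.31 over the DNA replication list and 0.13 over the list of D-type cyclins, A-type kinases, inhibitors and retinoblastoma. It was as high in lists outside the cell cycle, at 0.48 over the 6 mature root genes and 0.34 over the 3 root tip regulators. The median was -0.0047 over the leaf genes and -0.025 over all other genes tested. The genes outside the 9 members most like their mean were Os10g0563700, Os09g0462100 and Os03g0300700, at 0.97, 0.95 and 0.95. They are the top of 19198 genes, whose correlations ran from -0.97 to 0.97, so values of this size occur in both directions. These correlations describe libraries that differ in depth and are shared by all the genes.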

How the data were processed

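The members and gene lists were chosen with earlier results of these data known. What the authors deposited is a table holding, for each gene and library, a normalised signal. Per the submitters' processing notes, FastQC 0.11.8, Trimmomatic 0.38, STAR 2.6.1d and DESeq2 were used. Read counting is a step not given in the sources used here, nor is the genome build. Deposited values are read counts divided by a size factor. Between 99.978% and 100% of the values above 0 in a library were whole multiples, within 0.01, of the value of 1 read, so reads were recovered. The factors had been set within each time, which left a median log2 shift of 0.30 from 6 h to 24 h in mock roots. Treatment effects used the deposited values, and times were compared on values rescaled by median-of-ratios factors over the 12 libraries.

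Titles gave the groups and replicate numbers; the source names number 3 PA samples differently. The model was limma (3.58.1, under R 4.3.3) on log2(value + 2), with a mean for each of the 4 groups, robust moderation and a trend of variance with mean. Adjustment was by Benjamini-Hochberg at 0.05, over genes with a mean of at least 10. The added 2 understates fold changes of low genes. Alternatives were edgeR 4.0.16 and DESeq2 1.42.0 on recovered reads, other pseudocounts, filters, scalings, weights and replicate blocks, and leaving out each library. All 9 members were named whatever their values, with the 2 highest and 2 lowest 6 h values of the replication and mitosis lists and the 3 genes most like the members' mean. The fit was tested on simulated data with the same dispersion for every gene and no pairing of libraries. That test does not cover the uneven spread between the replicates here. Same-numbered PA and mock samples at 6 h had deviations that correlated at 0.305, 0.288 and 0.126, so the title numbers may pair them there. This pairing entered only the alternative fit with a block. The main fit, source of the limma SEs and p-values unless a block is named, ignored it. Over all genes 319 passed at 6 h in the main fit and 802 with the block. At 24 h the correlations of same-numbered samples were -0.187, 0.0505 and 0.0212, and across the times they ran from -0.241 to 0.0788, so no pairing was taken. Replicate libraries differed beyond sampling noise (chi-square over its degrees of freedom between 5.17 and 27.8). No sequence is shown, as the tables used here hold none.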

Additional observations from a re-analysis of the deposited data

How the results depend on the processing

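Depth limits MCM5 most, with 25 to 107 reads a library, and 3 libraries a group limit all members. For the treatment at 6 h the member median stayed negative, from -0.43 to -0.26 over the 12 refits without 1 library and from -0.46 to -0.32 in the other settings, and 0 to 1 members passed without 1 library. At 24 h and for the difference between the times 0 members passed in any setting run. The median difference ran from 0.17 to 0.36 without 1 library. With a replicate block by title numbers 0 members passed at either time, and the block changed no call of a member; with one by source-name numbers the median difference was 0.34. In mock roots, 24 h against 6 h, 2 members passed. The count was 3 with a minimum mean of 50 and by edgeR, where CDKB1;1 passed too, at adjusted p of 0.0484 and 0.0403. It was 1, PCNA, with a pseudocount of 0.5 and by DESeq2. With sample quality weights it was also 1, but CDKB1;1, at 0.0453, while CDKB2;1 and PCNA were lost, at 0.0632 and 0.0514. It was 0 with no filter or with a replicate block by title numbers across the times, a pairing the check does not bear out. Without 1 library the count ran from 0 to 2 and the median from -0.37 to -0.13. As deposited, without the common scale, the mock median was 0.060 with 0 calls, and the PA median was 0.31 with 2 calls.

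Several values near 0 changed sign. With the source-name block MCM2 at 6 h was -0.038, Os04g0563700 at 24 h was -0.035 and the difference for MCM5 was 0.15. With quality weights the difference for MCM2 was -0.025, and CDKB1;1 over the times in PA roots was 0.049. By edgeR MCM2 over the times in mock roots was -0.0024. As deposited, over the times, Os01g0805600 was 0.13, Os04g0563700 0.12, Os06g0726800 0.060 and MCM5 0.16 in mock roots, and CDKB1;1 was 0.28, PCNA 0.23, MCM3 0.088 and MCM5 0.10 in PA roots. The deposited scaling shifts all genes between the times by construction, and other causes were not tested.

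Without 1 library, the effect at 6 h ran from -0.10 to 0.039 in Os01g0805600 and from -0.063 to 0.070 in MCM2. At 24 h it ran from -0.22 to 0.0092 in CDKB1;1, -0.18 to 0.12 in CDKB2;1, -0.067 to 0.082 in Os04g0563700, -0.11 to 0.22 in Os06g0726800, -0.014 to 0.12 in PCNA, -0.020 to 0.058 in MCM2 and -0.26 to 0.083 in MCM3. The difference ran from -0.046 to 0.086 in MCM2 and -0.21 to 0.12 in MCM5. Over the times in mock roots the range was -0.032 to 0.056 in MCM2 and -0.23 to 0.012 in MCM5. In PA roots it was -0.13 to 0.082 in CDKB1;1, -0.086 to 0.21 in CDKB2;1, -0.045 to 0.15 in Os01g0805600, -0.13 to 0.0057 in PCNA and -0.023 to 0.11 in MCM2.

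Calls over all genes at 6 h were 319, against 680 by DESeq2, 802 and 65 with the title and source-name blocks, 686 with quality weights, 152 with the 6 h libraries alone and 4 to 741 without 1 library. At 24 h they were 22, against 53 by DESeq2, 40 with quality weights, 0 with the source-name block and 3 to 30 without 1 library. For the difference they were 106, against 331 by DESeq2, 376 and 25 with the title and source-name blocks, 239 with quality weights and 38 to 471 without 1 library. Between the times they were 3310 in mock and 2677 in PA roots, against 7943 and 7187 as deposited.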
